A study of Mus musculus with 40 samples.

Results

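The 33 genes described here are skeletal muscle genes, taken by name from a list and looked up in a table of 55270 genes measured in mouse fat. The list was split by fibre kind into 13 genes of fast fibres, 6 genes of slow fibres and 14 genes used by both. RNA sequencing covered 40 libraries of fat from C57BL/6J mice, 5 in each of 8 groups. Each of 2 depot labels, subcutaneous fat and visceral fat (the series text adds epididymis to the latter), was combined with 4 treatments: normal, high-fat diet (HFD), and each of these with drug. The drug is beta-carotene, per the series text; neither dose nor duration is given, and all groups share the one inbred strain. Nothing in the labels ties a library to an animal of its own, and p-values reflect only how far libraries scatter within groups, which may be technical. Libraries are named by the number in their title, and a number can occur under both depot labels.

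Skeletal muscle contracts when calcium, released from the sarcoplasmic reticulum, binds troponin and lets myosin pull on actin. Fast fibres (type II) and slow fibres (type I) build the same sarcomere from different gene copies: separate myosin heavy and light chains, troponins and calcium pumps. Adipocytes make no sarcomeres. In a bulk library, fewer cells of a type and less RNA per cell cannot be told apart, so a level here is an amount of transcript in the piece of tissue, not in a cell.

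TPM, the unit of all levels below, divides reads by gene length and scales each library to one total. About 4.58 to 8.58 M counted reads stood behind a library, by an approximate reconstruction from the steps of low values. The depot labels went against depot markers: 8 genes of the mesothelium, the lining of visceral fat, summed to 68.5 to 393 TPM in libraries labelled subcutaneous and 4.45 to 22.3 TPM in those labelled visceral. Genes of the epididymis summed to as much as 75658 TPM under the label subcutaneous and 241 TPM under the label visceral. The sample titles also split by label: those labelled subcutaneous end in e or ewat, and those labelled visceral in i. Libraries are therefore called labelled subcutaneous or labelled visceral throughout, and no direction below is a statement about anatomy. In the fit without a filter described below, 7.15% of 39930 genes were higher under the label visceral and 13.6% lower. There, 8 of 8 mesothelium genes were lower, and of 12 epididymis genes 0 were higher and 4 lower. Of 6 genes of inguinal fat 5 were higher and 1 lower. Their sums overlapped, at 129 to 288 TPM under the label subcutaneous and 144 to 293 TPM under the label visceral. The 10 adipocyte genes, of which 4 were higher and 0 lower, summed to 10317 to 50392 and 25219 to 53549.6 TPM under the labels subcutaneous and visceral.

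The sequences upstream of 4 members are shown because these genes carry the main contrasts among the 33: Myh4 had the largest difference between labels, Ckm followed the fast genes, Acta1 kept a level where Ckm was near 0, and Tnnc2 stayed near 0 in every library. Each is the 250 bases before the RefSeq start, on the gene's strand (build GRCm38.p6). Capitals mark an E-box (CANNTG, bound by MyoD-family factors), a MEF2 site or a CArG box (bound by serum response factor), searched on both strands; no marked motif overlaps another.

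Myh4, chr11:67237562-67237811, plus strand: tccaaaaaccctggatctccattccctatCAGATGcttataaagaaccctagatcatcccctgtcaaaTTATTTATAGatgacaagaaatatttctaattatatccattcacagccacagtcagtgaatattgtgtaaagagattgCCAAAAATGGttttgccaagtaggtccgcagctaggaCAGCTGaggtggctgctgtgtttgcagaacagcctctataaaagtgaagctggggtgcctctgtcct

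Ckm, chr7:19410844-19411093, plus strand: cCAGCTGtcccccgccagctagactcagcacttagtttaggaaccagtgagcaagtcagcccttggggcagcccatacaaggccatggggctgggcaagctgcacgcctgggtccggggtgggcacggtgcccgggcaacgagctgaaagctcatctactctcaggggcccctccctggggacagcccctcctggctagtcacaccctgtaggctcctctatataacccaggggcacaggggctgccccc

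Acta1, chr8:123894776-123895025, minus strand: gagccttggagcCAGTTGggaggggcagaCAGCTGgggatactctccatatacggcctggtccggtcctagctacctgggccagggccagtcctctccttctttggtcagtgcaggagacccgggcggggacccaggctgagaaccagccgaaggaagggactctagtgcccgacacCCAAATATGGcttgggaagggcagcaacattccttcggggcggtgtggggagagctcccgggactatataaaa

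Tnnc2, chr2:164779735-164779984, minus strand: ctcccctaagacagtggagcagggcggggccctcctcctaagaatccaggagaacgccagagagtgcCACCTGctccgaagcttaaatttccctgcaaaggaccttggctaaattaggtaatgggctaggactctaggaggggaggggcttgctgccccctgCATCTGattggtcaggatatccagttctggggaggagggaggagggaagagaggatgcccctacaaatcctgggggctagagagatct

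Of the 33 members, 26 had a window in the RefSeq table, 32 windows in all. An E-box stood in 28 of the 32 windows (87.5%), against 66.2% of all 32851 windows of this length. MEF2 sites were found in 4 of 32 (12.5%) and in 2.92% of all windows, and CArG boxes in 3 of 32 (9.38%) and in 1.47%. Myh4 held 1 MEF2 site, 1 CArG box and 2 E-boxes; Acta1 held 1 CArG box and 2 E-boxes; Ckm held 1 E-box. Tnnc2 held 2 E-boxes, as many as Myh4. A match is a run of letters, not a bound site.

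By class, fast and shared genes reached high levels in libraries labelled visceral, and slow genes reached them in none. Summed over the 13 fast genes, libraries labelled visceral held 23.3 to 12019 TPM (median 505, n = 20) and libraries labelled subcutaneous 6.93 to 104 TPM (median 16.4, n = 20). The 14 shared genes summed to 74.2 to 14215 TPM (median 815) and 73.2 to 715 TPM (median 235). The 6 slow genes summed to only 1.03 to 3.23 TPM (median 1.93) and 1.06 to 5.11 TPM (median 2.35). Fast genes made up 94.5 to 99.98% of the summed fast and slow TPM under the label visceral and 61.8 to 97.3% under the label subcutaneous. All 33 together took up to 2.63% of a library's TPM. Sums over 1000 TPM were seen in 12 of 20 libraries labelled visceral and in 0 of 20 labelled subcutaneous.

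**Figure D1:**
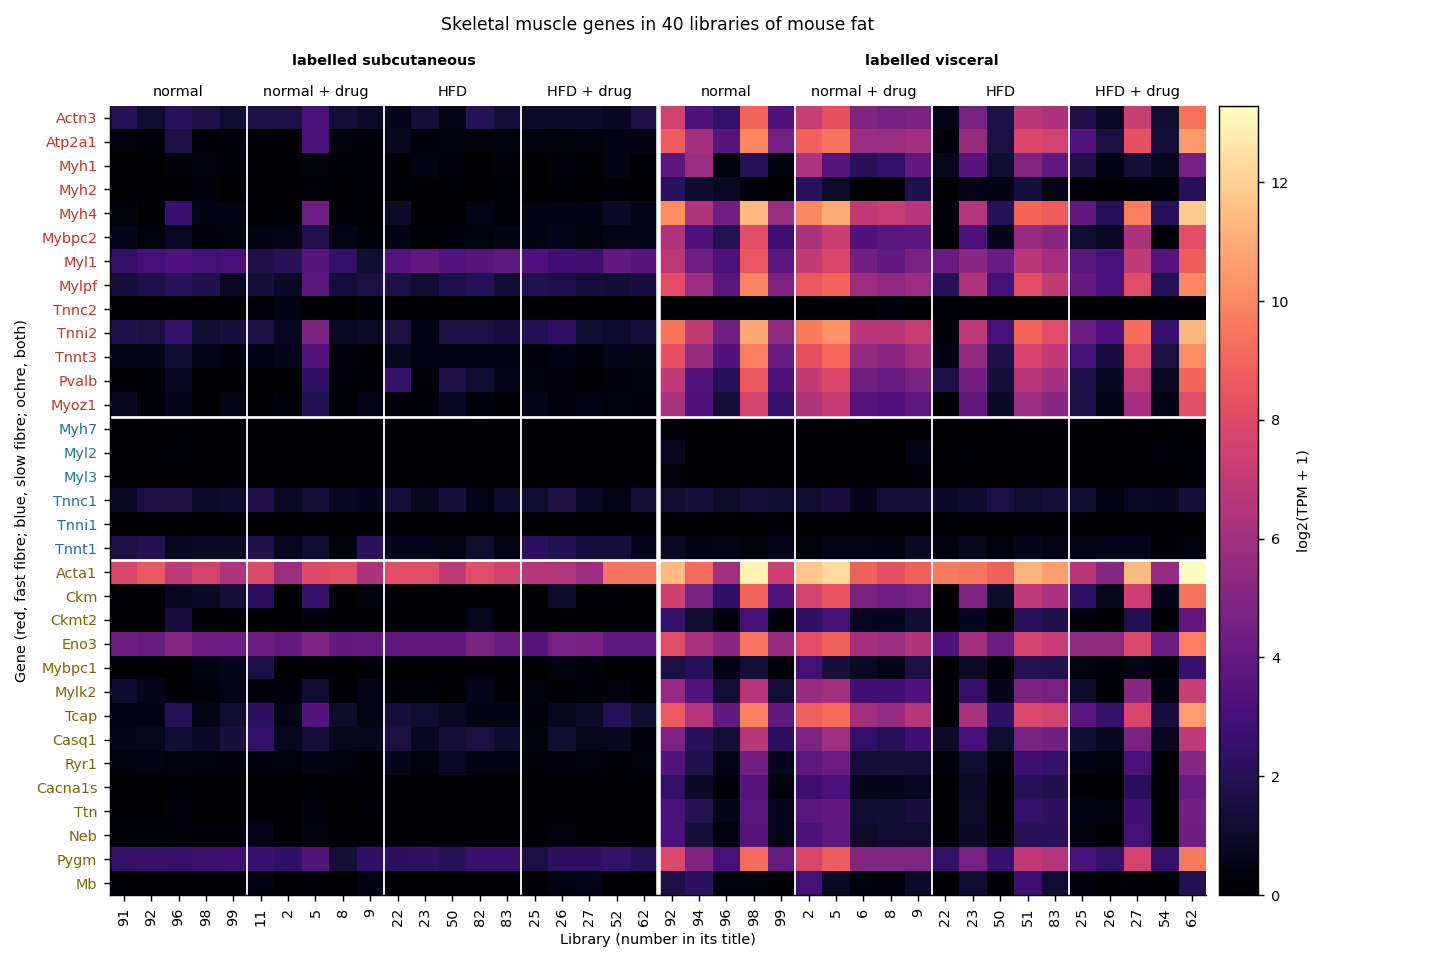
Levels of the 33 genes (rows; fast, slow and shared blocks) in the 40 libraries (columns, by depot label and treatment), as log2(TPM + 1) in colour. Bright columns are libraries labelled visceral, such as HFD with drug library 62 and normal library 98. No gene of the slow block passes 3.78 TPM in any column, while Acta1 and Eno3 are at 8.96 TPM or more in all 40.

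The difference between labels was tested on log2(TPM + 1) with limma over all genes, one mean per group, with Benjamini-Hochberg adjustment and a threshold of 0.05. A filter of 10 TPM in 5 libraries keeps a muscle gene only through the group where it is high, so the fit without a filter is given first. There, 26 of 33 members were higher in libraries labelled visceral and 1, Tnnt1, was lower, against 7.15% of 39930 genes higher and 13.6% lower. The median difference of the 33 was 2.14 log2 units and that of all genes was -0.02. By class, 12 of 13 fast, 14 of 14 shared and 0 of 6 slow members were higher. Tnnc2 was the fast gene that did not pass, and Myh7, Myl2, Myl3, Tnnc1 and Tnni1 were the slow ones. With the filter, 19 members were left, and these 19 were higher (15.9% of 8799 genes were). The scale of log2(TPM + 1) understates the change of genes below a few TPM.

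**Figure D2:**
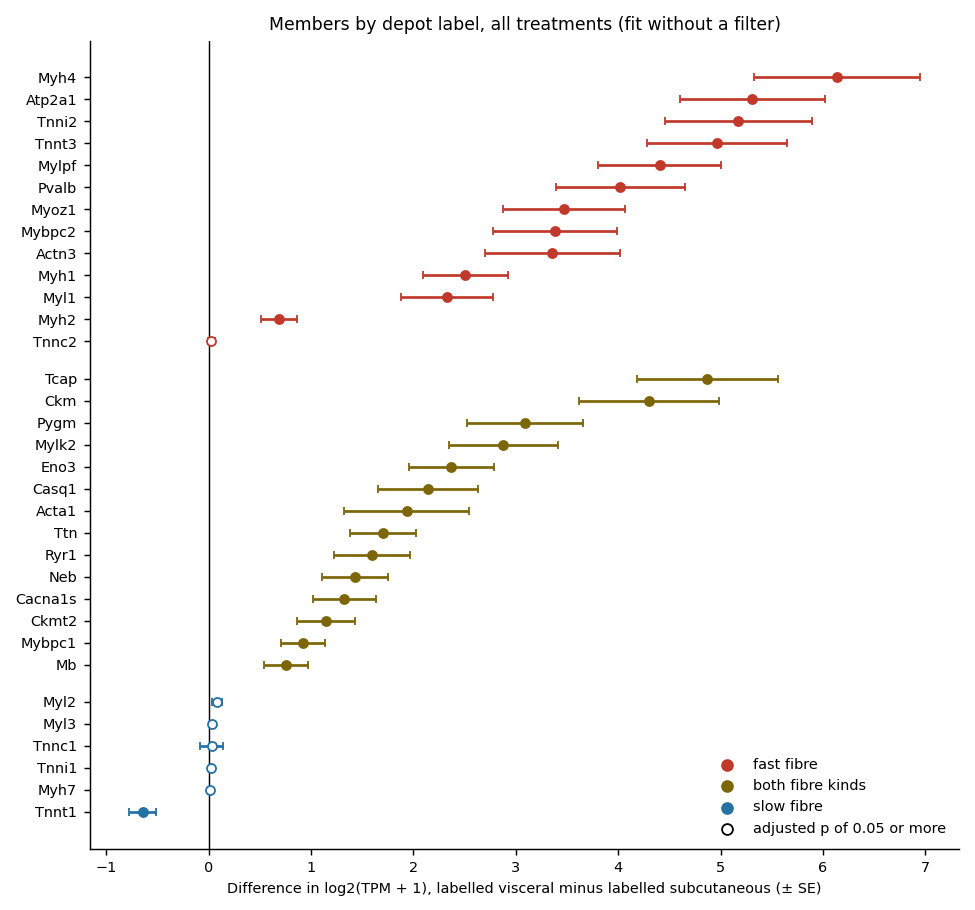
Difference in log2(TPM + 1), labelled visceral minus labelled subcutaneous, averaged over 4 treatments (points, with SE bars; fit without a filter; filled, adjusted p under 0.05). Myh4 lies at 6.14, all shared genes lie above 0, and the 6 slow genes lie between -0.64 and 0.08.

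Among the fast genes, Myh4, the heavy chain of the fastest mouse fibres (IIb), showed the widest separation. In libraries labelled visceral its levels were 20.3, 51.7, 83.8, 1121 and 2697 TPM in the normal group. They were 107, 129.7, 145, 1012 and 2026 TPM in normal with drug. In both normal groups 2 libraries were above 1000 TPM and 3 at 145 TPM or below. HFD libraries held 0.220, 3.15, 94.9, 429 and 530.1 TPM. With HFD and drug the values were 2.99, 3.14, 14.04, 854 and 3698 TPM. Every group labelled visceral ran over a wide range, while 18 of the 20 libraries labelled subcutaneous were at 1.03 TPM or less. The exceptions there were normal library 96 at 4.99 TPM and normal with drug library 5 at 20.1 TPM. The 5 HFD libraries labelled visceral overlapped the 5 labelled subcutaneous, because library 22 held only 0.220 TPM; the other 3 treatments did not overlap. Over all treatments Myh4 differed by 6.14 log2 units (SE 0.81, adjusted p = 1.01e-06, limma).

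Atp2a1, the fast calcium pump that returns calcium to the reticulum, was at 0.214 to 1469 TPM (median 60.9) under the label visceral and 0.0572 to 7.99 TPM (median 0.259) under the other. It differed by 5.31 log2 units (SE 0.71, adjusted p = 1.25e-06). Fast troponins were high in the same libraries. Inhibitory Tnni2 reached 2507 TPM, against 25.2 TPM in the highest library labelled subcutaneous. Tropomyosin-binding Tnnt3 reached 1127 against 9.81 TPM. Mylpf, the fast regulatory light chain, ran from 2.96 to 1035 TPM, and Actn3, the fast Z-disc actinin, from 0.467 to 652 TPM. The other fast genes were lower but followed the same libraries. Pvalb, a calcium buffer of fast fibres, reached 517 TPM. Mybpc2, fast myosin binding protein C, reached 282 TPM, and Myoz1, a Z-disc protein, 281 TPM. In libraries labelled subcutaneous the highest values of these 5 genes lay between 2.66 and 12.0 TPM. Library 5 of normal with drug gave the highest value for 4 of them; for Pvalb it was HFD library 22.

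Myl1, the fast essential light chain, behaved otherwise at the low end: it was at 1.40 to 14.3 TPM in libraries labelled subcutaneous and never under 7.70 TPM in those labelled visceral. HFD library 22, labelled visceral, held 15.6 TPM of Myl1 beside 0.158 TPM of Tnni2.

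The fast heavy chains did not keep one ratio. Myh1 (the IIx heavy chain) was at 0.280 to 84.3 TPM and Myh2 (IIa) at 0.0487 to 3.502 TPM under the label visceral, and neither passed 0.356 TPM under the other label. Myh1 was highest in normal with drug library 2 at 84.3 TPM, beside 1012 TPM of Myh4. In normal library 94 it was at 52.02 TPM beside 83.8 TPM of Myh4. In normal library 98 it was at 2.93 TPM beside 2697 TPM. Of the summed TPM of Myh1, Myh2, Myh4 and Myh7, Myh4 took 94.5% in the median library labelled visceral, from 22.7 to 99.9%. Its lowest shares, 22.7% in HFD library 22, 61.2% in normal library 94 and 64.0% in HFD library 50, rest on unequal levels, since in libraries 22 and 50 Myh4 itself was at 0.220 and 3.15 TPM.

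**Figure D3:**
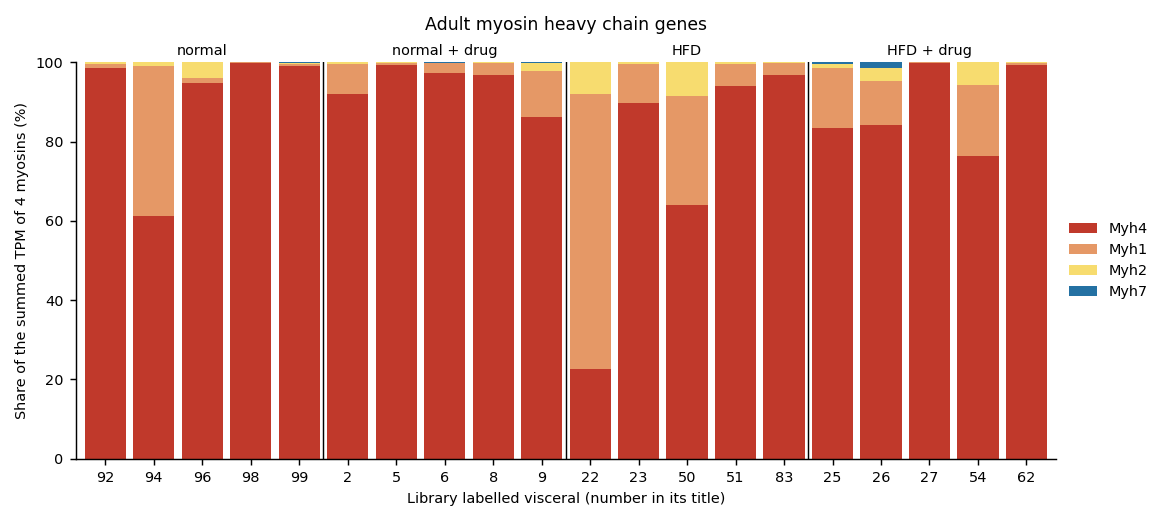
Share of Myh4, Myh1, Myh2 and Myh7 in the summed TPM of these 4 myosin genes (percent, stacked bars) in each of the 20 libraries labelled visceral, by treatment. Myh4 takes most of the bar except in HFD library 22 (22.7%), Myh1 is largest there and in normal library 94 (38.0%), and the Myh7 share stays at 1.53% or less.

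Ratios within a library show which genes kept a constant proportion. In the 16 libraries labelled visceral with at least 10 TPM of Tnni2, each member was set against 100 TPM of Tnni2. Tnnt3 ran from 34.1 to 48.5 (median 43.5) and Atp2a1 from 42.7 to 67.8, although Tnni2 itself spanned 18.9 to 2507 TPM in these libraries. Ckm ran from 16.0 to 27.9, Acta1 from 318 to 619.6 and Cacna1s from 0.499 to 0.900. Highest over lowest was 1.42 for Tnnt3, 1.59 for Atp2a1, 1.74 for Ckm, 1.95 for Acta1 and 2.65 for Myh4. The same quotient was 244 for Myh1, 361 for Myh2, 159 for Mb and 29.0 for Mybpc1. Ranks over all 20 libraries labelled visceral show the same split: Spearman's rho with Tnni2 was 0.97 for Myh4, 0.98 for Ckm and 0.69 for Myh1, while Mb and Mybpc1 followed Myh1 (0.92 and 0.93). These coefficients describe 20 libraries that share a total of TPM, and no test was made on them.

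Of the genes that both fibre kinds use, Tcap and Ckm had the largest differences. Ckm, the cytosolic creatine kinase that regenerates ATP, was at 4.08, 9.83, 23.9, 175 and 505 TPM in normal libraries labelled visceral. Its levels were 19.9, 23.3, 25.3, 188 and 342 TPM in normal with drug. The 2 highest libraries were 92 and 98 in the normal group and 2 and 5 in normal with drug, as for Myh4. HFD libraries held 0, 1.08, 28.4, 71.4 and 118 TPM, and HFD with drug libraries 0.631, 0.694, 4.17, 165 and 664 TPM. In libraries labelled subcutaneous it was at 0 to 4.36 TPM, with the top values in normal with drug libraries 5 and 11 (4.36 and 3.65 TPM). Groups overlapped between labels under both HFD treatments and were apart under both normal ones. Ckm differed by 4.30 log2 units (SE 0.68, adjusted p = 1.99e-05) over all treatments. Tcap, which caps titin at the Z-disc, differed by 4.87 (SE 0.69, adjusted p = 3.27e-06), with levels of 0 to 1524 and 0.238 to 10.1 TPM.

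The glycolytic and glycogen enzymes had a base level everywhere. Eno3, beta-enolase, was at 8.96 to 857 TPM under the label visceral and 11.2 to 33.9 TPM under the label subcutaneous. Pygm, which breaks down muscle glycogen, was at 4.47 to 778 and 1.52 to 10.05 TPM. Both were higher under the label visceral, by 2.37 (SE 0.42, adjusted p = 7.65e-05) and 3.09 log2 units (SE 0.57, adjusted p = 0.000135). Ckmt2, the creatine kinase of muscle mitochondria, stayed low beside Ckm: 0.0175 to 13.6 TPM.

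Genes of calcium release were higher too, at lower levels. Ryr1, the release channel, was at 0.142 to 34.4 TPM, Cacna1s, its voltage sensor, at 0.00612 to 16.7 TPM and Casq1, which stores calcium in the reticulum, at 0.719 to 124 TPM in libraries labelled visceral. Highest values under the other label were 0.810, 0.108 and 4.40 TPM. The giant filament genes Ttn and Neb, the molecular spring and the thin-filament ruler, reached 20.9 and 18.9 TPM. Mylk2, the kinase of the skeletal regulatory light chain, reached 149 TPM. All 6 were higher under the label visceral, by 1.324 (Cacna1s) to 2.88 log2 units (Mylk2).

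Mybpc1, the myosin binding protein C gene of slow fibres that fast fibres also use, and Mb, the oxygen store of oxidative fibres, were low and patterned like Myh1. Both were counted as shared genes and were higher under the label visceral without the filter, so the count of 0 of 6 slow members does not cover them. Mybpc1 was at 0.0709 to 6.56 TPM. In libraries labelled visceral Mb was at 0.0122, 0.251, 0.317, 1.95 and 3.67 TPM in the normal group and 0.219, 0.257, 0.911, 1.05 and 6.35 TPM in normal with drug. It was at 0, 0.150, 1.23, 1.37 and 5.27 TPM in HFD and at 0.0360, 0.0615, 0.183, 0.215 and 2.67 TPM in HFD with drug. One library stood far above the others in 3 of these groups, namely library 2 in normal with drug, 51 in HFD and 62 in HFD with drug. Libraries 51 and 62 were also the fullest of their groups in fast transcripts, but in normal with drug that was library 5. Libraries labelled subcutaneous held 0 to 0.488 TPM of Mb. The difference was 0.75 log2 units (SE 0.22, adjusted p = 0.0109), and 31.9% of Mb exon bases overlap other genes in GENCODE M21, so reads there could belong to either.

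Acta1, skeletal alpha-actin, was the member with the highest level and was found under both labels. Libraries labelled subcutaneous held 84.0, 127, 191, 225 and 382 TPM in the normal group and 52.7, 78.8, 247, 257 and 301 TPM in normal with drug. They held 121, 182, 275, 278 and 291 TPM under HFD and 57.1, 94.3, 102, 677 and 697 TPM under HFD with drug. No library labelled subcutaneous was without Acta1, and the highest 2 were both in HFD with drug. Libraries labelled visceral held 63.9, 170.2, 569.5, 2688 and 8326 TPM in the normal group and 321, 454, 479, 3280.2 and 5175 TPM with drug. Under HFD they held 485, 734, 797, 1558 and 2363 TPM, and under HFD with drug 34.5, 47.7, 105, 2703 and 10006 TPM. The labels overlapped in the normal and the HFD with drug groups and were apart in the other 2. Acta1 was higher under the label visceral by 1.93 log2 units (SE 0.61, adjusted p = 0.0213). With the filter its adjusted p was 0.0104. Without the 5 libraries labelled subcutaneous in which epididymis genes exceeded 500 TPM, the filtered difference was nearly as large but not called (1.77 log2 units, SE 0.72, adjusted p = 0.0526). Without the 10 libraries labelled visceral in which B cell genes exceeded 1000 TPM, the difference was 3.41 log2 units (SE 0.60, adjusted p = 0.000157).

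Different patterns of Acta1 can be seen against Ckm. In the libraries labelled visceral with the most muscle transcripts it stood at a near-constant multiple of Ckm: 15.1 in HFD with drug library 62, 15.1 in normal with drug library 5 and 16.5 in normal library 98. In HFD library 22 it was at 797 TPM with Ckm listed at 0, and in HFD library 50 at 485 TPM with 1.08 TPM of Ckm. In HFD with drug libraries 26 and 54 labelled visceral, Acta1 was at only 34.5 and 47.7 TPM with 0.694 and 0.631 TPM of Ckm. Among libraries labelled subcutaneous the multiple was 53.7 to 14325 where Ckm was above 0. Smooth muscle genes (10, among them Acta2 and Myh11) summed to 509 and 595 TPM in HFD libraries 22 and 50, against 109.8 to 595 TPM over the 20 libraries labelled visceral. The 2 libraries labelled subcutaneous with the most Acta1, HFD with drug 52 and 62, were at 313 and 225 TPM in a range of 154 to 974. As a list, 0 of 10 smooth muscle genes were higher and 6 lower under the label visceral without the filter (7.15% and 13.6% of 39930 genes). Their part in the Acta1 level was not tested.

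**Figure D4:**
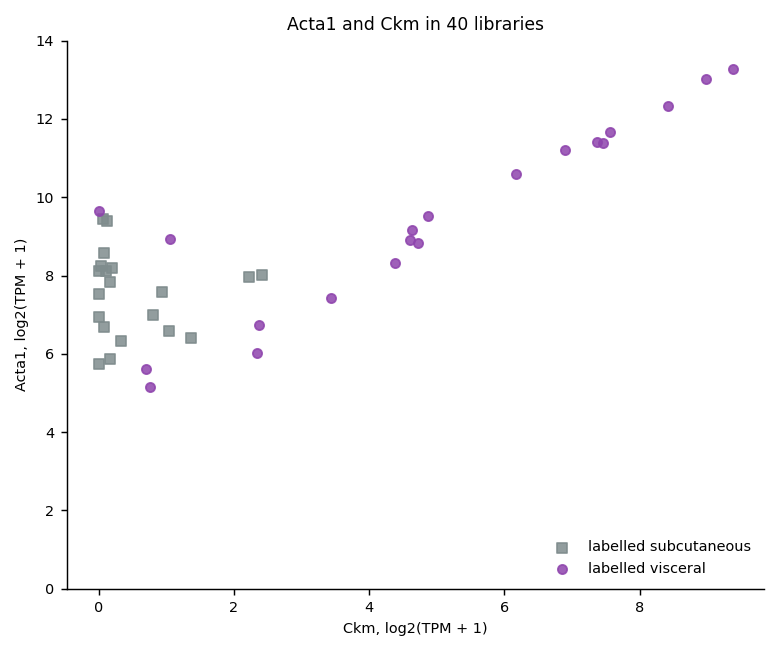
Acta1 (vertical axis) against Ckm (horizontal axis) in the 40 libraries, both as log2(TPM + 1); squares, labelled subcutaneous; circles, labelled visceral. Circles form a rising line up to 664 TPM of Ckm and 10006 TPM of Acta1, while all squares stand at the left with Ckm below 5 TPM. Of the circles with Ckm below 5 TPM, HFD libraries 22 and 50 stand high (797 and 485 TPM of Acta1). Normal library 96 and HFD with drug libraries 25, 26 and 54 stand lower (63.9, 105, 34.5 and 47.7 TPM).

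The slow genes were low in all 40 libraries, and 4 of the 6 (Myh7, Myl2, Myl3 and Tnni1) never reached 1 TPM. Myh7, the slow heavy chain, was listed at 0 in 26 libraries and reached 0.142 TPM at most, in normal library 96 labelled subcutaneous. Myl2 and Myl3, the slow regulatory and essential light chains, were at most 0.751 and 0.242 TPM, both in normal library 92 labelled visceral. Tnni1, slow inhibitory troponin, was at most 0.136 TPM. Even in HFD with drug library 62, with 12019 TPM of fast transcripts, the 6 slow genes summed to 2.09 TPM. Differences between labels were 0.02 (Myh7), 0.08 (Myl2), 0.03 (Myl3) and 0.02 log2 units (Tnni1), with adjusted p from 0.0879 to 0.472. Most values of these 4 genes rest on few reads or none, so the lack of a call says little about a change in them.

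The slow troponins Tnnc1 (calcium-binding) and Tnnt1 (tropomyosin-binding) had a low level that did not follow muscle transcripts. Tnnc1 was at 0.380 to 2.16 TPM under the label visceral and 0.498 to 2.60 TPM under the label subcutaneous, a difference of 0.03 log2 units (SE 0.11, adjusted p = 0.873). Tnnt1 was at 0.738, 0.932, 0.940, 2.16 and 2.68 TPM in normal libraries labelled subcutaneous and 0.253, 0.711, 1.40, 2.48 and 3.67 TPM in normal with drug. It was at 0.442, 0.452, 0.584, 0.653 and 1.27 TPM under HFD and 0.620, 1.68, 1.73, 2.73 and 3.78 TPM under HFD with drug. Libraries labelled visceral held 0.107 to 0.853 TPM, overlapping the others in all 4 treatments. Tnnt1 was lower under the label visceral (-0.64 log2 units, SE 0.13, adjusted p = 0.000513), opposite in sign to the 26 members that were higher. Over the 20 libraries labelled visceral, Spearman's rho with Tnni2 was 0.37 for Tnnc1 and 0.07 for Tnnt1.

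Tnnc2, fast troponin C, was listed at 0 in 30 of 40 libraries and at 0.352 TPM at most, although its partners Tnni2 and Tnnt3 reached 2507 and 1127 TPM. In HFD with drug library 62, the fullest in muscle transcripts, it was at 0.131 TPM. In GENCODE M21, 74.0% of the exon bases of Tnnc2 (on chromosome 2, minus strand) overlap exons of Ube2c on the other strand, more than for any other member (next, Mb at 31.9%, Atp2a1 at 21.9% and Cacna1s at 19.98%). Ube2c, a cell cycle ubiquitin-conjugating enzyme, was at 1.08 to 11.7 TPM in libraries labelled visceral and at 1.74 TPM in library 62. How reads in shared exons were counted is not given in the sources used here, and its part in the Tnnc2 value was not tested.

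Within single treatments, the difference was called for fewer members. On the normal diet, 8 of 33 members were higher under the label visceral without the filter (0.859% of 39930 genes), and 11 of the 19 that passed the filter (2.58% of 8799). With drug on the normal diet these counts were 16 of 33 (1.61%) and 16 of 19 (5.59%). Under HFD with drug they were 5 of 33 higher (2.31%) with 1 lower (4.35%), Tnnt1, at -1.05 log2 units (SE 0.26, adjusted p = 0.0130), and 9 of 19 higher (10.2%). Under HFD alone no member passed: 0 of 33 (1.46% of genes in either direction) and 0 of 19 (1.94%). Without the filter the median difference of the 33 under HFD was 1.60 log2 units and that of all genes was -0.02. The differences that follow are from the fit with the filter, which kept these genes through the group where they were high. Myh4 differed by 6.85 log2 units (SE 1.60, adjusted p = 0.00574) on the normal diet. With drug on that diet it differed by 7.42 (adjusted p = 0.00152), under HFD by 4.97 (adjusted p = 0.121) and under HFD with drug by 5.30 (adjusted p = 0.0187), each with SE 1.60. The SE of a gene is the same in each treatment because the depot fit pools its spread over all groups. Libraries labelled visceral scattered far more than those labelled subcutaneous. A p-value within a treatment therefore does not measure the scatter of its own libraries alone. Atp2a1 differed by 6.01, 6.39 and 4.66 in the 3 treatments with calls (SE 1.40, adjusted p from 0.00177 to 0.0182). Tcap differed by 5.63, 5.72 and 4.18 (SE 1.36, adjusted p from 0.00337 to 0.0277), and Ckm by 4.70, 4.94 and 3.82 (SE 1.35, adjusted p from 0.00916 to 0.0400). Without the filter, neither Tcap nor Ckm was called under HFD with drug. With the title number as a block, both lost their call on the normal diet, and Ckm also under HFD with drug.

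Single libraries decided part of these counts and calls. Shares of all genes in this paragraph are of calls in either direction. Except where a fit without a filter is named, counts and calls are from the fit with it. They cover only members kept through the group where they are high, and single libraries were not left out of the other fit. The normal count of 11 of 19 became 7 of 19 without library 91 or 92 labelled subcutaneous (5.39 and 5.41% of all genes). It was 7 of the 18 members that passed the filter without library 92 labelled visceral (10.5%) and 6 of 18 without 98 labelled visceral (10.1%). Without library 22 labelled visceral the HFD count was 7 of 19 in place of 0 (1.88%). For HFD with drug the count of 9 of 19 became 0 of 19 without library 27 labelled visceral (16% of all genes) and 0 of 18 without 62 (25%). It was 15 of 19 without 54 labelled visceral (23.3%) and 5 of 19 without library 25 labelled subcutaneous (14.6%). All 4 named genes lost their call under HFD with drug without library 27 or 62 labelled visceral, and Tcap also without library 25 labelled subcutaneous. There Ckm lost it without any single library labelled subcutaneous, and its adjusted p reached 0.145 without library 62 labelled visceral. In the fit without a filter neither Tcap (adjusted p = 0.0618) nor Ckm (adjusted p = 0.0877) was called under HFD with drug. On the normal diet the call of Ckm was lost without library 91 or 92 labelled subcutaneous or library 92 or 98 labelled visceral (adjusted p from 0.0532 to 0.0695). Its difference was then 4.58 or 4.55 log2 units without the former pair and 4.18 or 3.80 without the latter, against 4.70 with all libraries.

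All 5 libraries labelled visceral lay above all 5 labelled subcutaneous for 19 of the 33 members on the normal diet (1.35% of 39930 genes) and for 22 with drug added (1.45%). This held for 5 members under HFD (1.09%), namely Myh1, Myl1, Mylpf, Acta1 and Mybpc1, and for 9 under HFD with drug (2% of genes). No member lay wholly below in any treatment. Myh1 and Mylpf were apart in all 4 treatments.

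Treatments overlapped within each label. Summed fast TPM in libraries labelled visceral was 94.7, 200.3, 501, 3412 and 9054 in the normal group. It was 451, 486, 559, 3648 and 6095 in normal with drug. HFD libraries held 23.3, 45.6, 509.6, 1447 and 2243, and HFD with drug libraries 29.0, 34.7, 87.4, 2843 and 12019. The 4 groups overlapped, each with at least 1 library above 2000 TPM, and HFD with drug held the highest library and 2 of the 4 lowest. Under the label subcutaneous the sums were 13.04, 13.8, 14.1, 14.4 and 31.3 (normal), 6.93, 8.90, 9.64, 10.1 and 104 (normal with drug), 18.1, 18.95, 19.7, 21.9 and 22.96 (HFD) and 11.6, 15.5, 17.3, 19.3 and 20.9 TPM (HFD with drug). There, normal library 96 and normal with drug library 5 stood above all others.

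**Figure D5:**
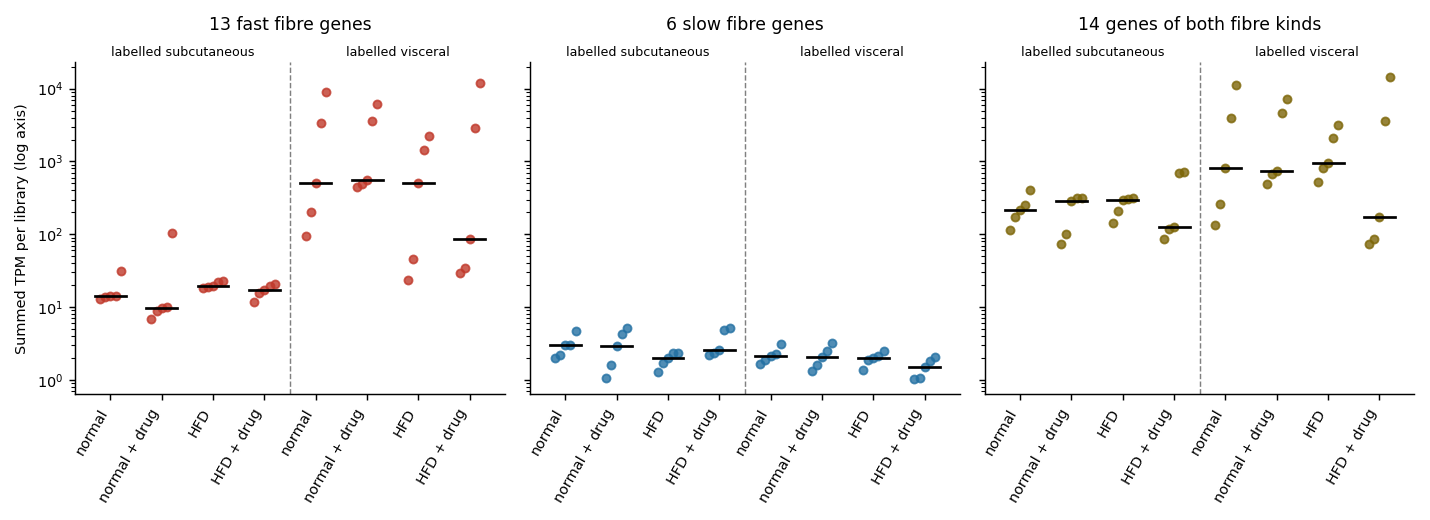
Summed TPM (log axis) of fast, slow and shared genes in each library (points; horizontal offset has no meaning) with the group median (bar), by treatment and depot label. Fast sums labelled visceral run from 23.3 to 12019 TPM with overlapping treatments, and slow sums stay between 1.03 and 5.11 TPM in all groups.

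No effect of diet or drug on a member was called within either label. Among libraries labelled visceral, 0 of the 19 members that passed the filter were called for HFD against normal (8.93% of 7760 genes were), for drug under HFD (5.18%) or for drug on the normal diet (0%), and 0 had an unadjusted p under 0.05. Acta1, Eno3 and Myl1 passed the filter among libraries labelled subcutaneous, and 0 of 3 were called for HFD (10.3% of 7776 genes), drug under HFD (27.4%) or drug on the normal diet (0%). Standard errors were large: with HFD, Myh4 labelled visceral differed from normal by -2.27 log2 units (SE 2.14, adjusted p = 0.496) and Ckm by -1.57 log2 units (SE 1.85, adjusted p = 0.588). With drug under HFD, Myh4 differed by 0.56 log2 units (SE 2.14, adjusted p = 0.909), Ckm by 0.32 log2 units (SE 1.85, adjusted p = 0.941) and Acta1 by -1.55 log2 units (SE 1.55, adjusted p = 0.596). In the fit without a filter, Myh7 differed by 0.03, Tnnt1 by -0.06 and Mb by -0.54 (adjusted p = 0.799, 0.917 and 0.758). These signs rested on single libraries: without library 62 of HFD with drug the differences were -0.92 for Myh4 and -0.999 for Ckm, and both were also below 0 without library 22, 50 or 27 labelled visceral. With drug on the normal diet, Myh4 differed by 0.77 log2 units (SE 2.14, adjusted p = 0.999). The depot difference itself was not called to change with HFD (0 of 19 members, 0% of 8799 genes) or with drug under HFD (0 of 19, 0.182%). In the fit of the 2 groups alone, Myl1 labelled subcutaneous was 0.71 log2 units higher with HFD (SE 0.17, adjusted p = 0.0157), where the fit of all 20 libraries gave an adjusted p of 0.204.

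Libraries were ordered much alike by most members. Of 33, 22 were highest in HFD with drug library 62, whose member sum was 26236 TPM, followed by normal 98 (20335 TPM) and normal with drug 5 (13336 TPM). Lowest under the label visceral were HFD with drug libraries 54 (104 TPM) and 26 (122 TPM). Library 62 also stood apart in genes outside the 33: mitochondrially encoded genes took 43.5% of its TPM against 20.3 to 34.0% in the other 39. Brown fat genes summed to 836 TPM there (Ucp1 192 TPM), against 48.5 to 189 TPM in the other 19 labelled visceral. That list shares Cox7a1 and Cox8b with the list of muscle energy genes given below. Skin genes summed to 90.8 TPM (Krt14 76.5 TPM), against 4.34 to 14.7 TPM in the other 19 labelled visceral. Their part in its muscle level was not tested.

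Other lists moved with the label as well, beside 7.15% of 39930 genes higher and 13.6% lower. All 9 nerve sheath genes were higher under the label visceral in the fit without a filter (69.0 to 309 against 32.0 to 93.7 TPM summed), as were 8 of 11 brown fat genes (48.5 to 836 against 8.54 to 50.9 TPM) and 8 of 10 B cell genes (90.6 to 4818 against 180.4 to 1871 TPM). The brown fat list is not separate from muscle genes, since Cox7a1 and Cox8b are also in the muscle energy list. Of 7 skin genes tested, 0 passed in either direction, with a sum of up to 131 TPM in a library labelled subcutaneous. In the 10 libraries labelled visceral with over 1000 TPM of B cell genes, the member sum was 122 to 6465 TPM (median 1045); in the other 10 it was 104 to 26236 TPM (median 6348).

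Wider lists of skeletal muscle genes were read in the fit without a filter, against the same 7.15% higher and 13.6% lower. Of 22 further sarcomere genes, 19 were higher and 0 lower, with Klhl41 (2.32 log2 units, SE 0.43, adjusted p = 0.000135), which stabilises nebulin, and Tmod4 (2.28, adjusted p = 0.000156), which caps thin filaments, the largest. Of 17 genes of excitation and the membrane, 10 were higher, led by Hrc (3.29, adjusted p = 2.23e-05), which binds calcium in the reticulum, and Jsrp1 (1.80, adjusted p = 0.00154). In that list Chrnb1, an acetylcholine receptor subunit, and Dysf, a membrane repair gene, were lower (-0.60 and -0.26). Of 14 genes of muscle energy supply, 10 were higher and 0 lower; Cox6a2 (3.83, adjusted p = 7.54e-07) and Cox8b (3.04, adjusted p = 7.45e-11), cytochrome oxidase subunits, had the largest differences, and Cox8b is also a gene of brown fat.

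Of 10 myogenic genes, 7 were higher and 0 lower. Myf6, the MyoD-family factor of mature fibres, differed by 2.69 (adjusted p = 0.000309) and Mstn, the secreted inhibitor of muscle growth, by 1.71 (adjusted p = 0.000807). Pax7, the marker of muscle stem cells, was at 0.0268 TPM at most. Of 4 developmental myosins, 1 passed: Myh8, by 0.08 (adjusted p = 0.000806) at no more than 0.244 TPM. Of 10 heart genes, 0 were higher and 3 lower (Tnnt2, Myl7 and Nppb, by -1.16, -0.73 and -0.32), and the atrial hormone Nppa was at 0.897 TPM at most.

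Among non-members, the 8 genes whose ranks over the 20 libraries labelled visceral were most like the summed members (Spearman's rho, 15938 genes with a mean of 1 TPM or more) were Srl (0.99), Ldb3 (0.98), Dhrs7c, Asb16, Kcna7, Smyd1, Cox6a2 and Cmya5 (0.97 each). Srl reached 29.0 TPM in libraries labelled visceral and 1.31 TPM in those labelled subcutaneous, and Cox6a2 reached 347 and 15.7 TPM.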

How the data were processed

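RNA was extracted with an RNeasy kit and libraries were made with the NEBNext Ultra kit, per the labels' protocols. The submitters' processing notes name the genome build GRCm39 and, without their roles, STAR 2.7.8 (an aligner), featureCounts 2.0.3, FastQC 0.11.9 and DESeq2 1.32.0. The authors deposited one table of TPM values, taken as TPM from its columns, which all sum to 998276 and in which low values follow gene length. No file of counts was used here. Steps among the low values gave about 4.58 to 8.58 M reads a library (median 6.16 M), but only 24.1 to 28.9% of values below 20 steps came out within 0.02 of a whole number, so no count test was run. Those depths are approximate and cover counting error only.

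Libraries were grouped by the labels' tissue and treatment. Log2(TPM + 1) was modelled on R 4.3.3 by limma 3.58.1, with trended and robust empirical Bayes, for all genes with 10 TPM in at least 5 libraries, and again without that filter. Depot comparisons used all 40 libraries and diet and drug comparisons the 20 of one label. Each fit pooled the spread of a gene over all its groups. Calls are Benjamini-Hochberg adjusted p-values under 0.05 over all genes. On simulated data with 200 changed genes among 8799, the depot comparison over all treatments recovered 89% of changes of 1 log2 unit and 98% of changes of 2. For the depot comparison in the normal group these shares were 62% and 88%. For drug under HFD labelled visceral (7760 genes) they were 69% and 88%. These shares are over genes in general and do not carry over to the muscle genes: in the last comparison standard errors were 1.55 (Acta1), 1.85 (Ckm) and 2.14 log2 units (Myh4). Tables were handled with Python 3.11.15, pandas 2.3.3 and numpy 2.4.6, and plots made with matplotlib 3.10.9.

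Alternatives were pseudocounts of 0.5 and 5, other filters, quantile normalization, removal of mitochondrially encoded genes, library weights, non-robust moderation, the 2 compared groups alone, the title number as a block and each library left out. Leaving out the libraries rich in epididymis genes (over 500 TPM) or B cell genes (over 1000 TPM) was chosen after seeing the data. Full statistics were to be given for the 2 largest changes per fibre class and always for Ckm, Acta1, Myh4, Myh7, Tnnt1 and Mb in the depot comparison over all treatments and in drug under HFD labelled visceral. Wider lists were to give counts and the 2 largest called changes. Values of other members are given to account for all 33, and other statistics were picked after values were seen. The members and all lists were chosen with earlier results of these data known. Exon overlaps come from GENCODE M21 and promoters from RefSeq on GRCm38.p6, not the authors' build, so no gene coordinates on GRCm39 are given. Genes at 0 in every library (15340 of 55270) entered no test.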

Additional observations from a re-analysis of the deposited data

Results flagged for a closer look

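The class sums and Ckm, Acta1, Myh4, Myh7, Tnnt1 and Mb were each checked within the groups of 5 libraries, 71 checks on the same 40 libraries. A library was taken to stand apart where its gap to the nearest other exceeded 0.71 of the range of the group (Dixon's critical value). A library stood apart 18 times. Chance gives this in about 1 in 20 groups of independent, normally distributed values, which would be 3.55 here, but these TPM values are skewed and the genes vary together, so these results are not independent. For Myh7 any single value above 0 among zeros meets the rule. HFD with drug library 62, labelled visceral, stood apart in 6 measures: fast genes summed to 12019 TPM, shared genes to 14215 TPM, Myh4 was at 3698, Ckm at 664, Acta1 at 10006 and Mb at 2.67 TPM.

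Mb also stood apart in normal with drug library 2 (6.35 TPM) and HFD library 51 (5.27 TPM), both labelled visceral, and in HFD library 22 labelled subcutaneous (0.0387 TPM). Among libraries labelled subcutaneous, normal with drug library 5 held 104 TPM of fast genes and 20.1 TPM of Myh4. Normal library 96 held 31.3 TPM of fast genes, 4.99 TPM of Myh4 and 0.142 TPM of Myh7. HFD with drug library 26 held 1.06 TPM of Ckm, and HFD library 82 held 1.27 TPM of Tnnt1. Myh7 was above 0 in 1 library only in 3 groups; beside library 96 these were normal with drug library 8 labelled subcutaneous (0.0356 TPM) and HFD library 23 labelled visceral (0.0165 TPM), levels of a few reads at most.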

How the results depend on the processing

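Of 340 counts of called members recomputed under another setting or without a library, 19 moved by over 1.5 times. The counts they are set against are from the fit with the filter, and so cover only members kept through the group where they are high. All but 2 of these 19 were depot counts within single treatments; most of the other counts could hardly move, being 0 for diet, drug and interaction or covering nearly every member tested over all treatments. Over all treatments the count was 18 to 19 when each library was left out, equal to the number of members then passing the filter. On the normal diet the count of 11 became 6 with a pseudocount of 5, 5 of only 7 tested with the 2 groups alone and 18 without the libraries rich in B cell genes (2.61% of all genes called in either direction); it was 6 to 13 with single libraries left out. In normal with drug 16 became 9 without the libraries rich in epididymis genes (15 to 17 leaving out single libraries). In HFD with drug 9 became 17 with library weights, 0 of only 3 tested with the 2 groups alone and 2 without the libraries rich in epididymis genes (0 to 15 leaving out single libraries). Under HFD the count was 0 to 7 leaving out single libraries. For HFD labelled subcutaneous 0 became 1 (Myl1) with the 2 groups alone, and 1 without the libraries rich in epididymis genes. The causes were not tested, and some of these fits held fewer libraries.

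For drug under HFD labelled visceral, leaving out single libraries moved Ckm from -0.999 to 1.17 log2 units and Myh4 from -0.92 to 1.54. Without libraries 22, 50 and 27 in turn, Ckm was at -0.63, -0.37 and -0.50 and Myh4 at -0.70, -0.26 and -0.39. The adjusted p of Acta1 in the depot comparison over all treatments ranged from 0.000157 to 0.0526.

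The numbers in the titles were not treated as pairs, since the labels do not say what they mark and libraries of the same number were only weakly correlated. This does not show that they pair nothing. Over 16 pairs of the same number the correlation of deviations was -0.0986 to 0.140, with 3 over 0.1. Among the libraries labelled visceral of its treatment, the best match had the same number in 6 of the 16. No chance level was worked out for that count. With the title number as a replicate block, the counts were 19 over all treatments, 4 (normal), 14 (normal with drug), 0 (HFD) and 7 (HFD with drug), beside 32.6, 4.72, 9.15, 1.13 and 15.7% of all genes called in either direction. Under the block Tcap (adjusted p = 0.0588) and Ckm (adjusted p = 0.0949) lost their call in the normal group, and Ckm (adjusted p = 0.0514) in HFD with drug. Depth limits Myh7, Myl2, Myl3 and Tnni1, for which most values rest on few reads or none. Tnnc2 was also near 0, and the part of depth in its value was not tested.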
